A study of Homo sapiens with 4 samples.

Results

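The expression of 10 pluripotency genes was followed in CD31+ cells that the human embryonic stem cell line H1 gave rise to during hematopoietic differentiation. The genes were POU5F1, NANOG, SOX2, LIN28A, LIN28B, GDF3, DPPA4, DNMT3B, TDGF1 and L1TD1, found by symbol among 58229 genes in the deposited table. All 10 had a row. CD31+ cells without HAND1 overexpression (Control, 2 libraries) were compared with CD31+ cells from H1 with HAND1 overexpression (HAND1_OE, 2 libraries), all collected at day 8. Both groups passed through activin A and BMP4, which induce mesoderm, and then VEGF and bFGF, which favour endothelial and blood fates. The study drew HAND1 expression as switched on with doxycycline part way through the culture. Whether each group was a single clone and whether its 2 libraries came from separate cultures are not given in the sources used here. No library of undifferentiated H1 was among the samples, so the word residual could not be tested.

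In an undifferentiated stem cell POU5F1 (OCT4), SOX2 and NANOG form a circuit of transcription factors that sustain one another and the undifferentiated state. Around this circuit lie other genes known for the same state. LIN28A and LIN28B are RNA-binding proteins that block maturation of the let-7 microRNAs, and TDGF1 (CRIPTO) is a co-receptor for NODAL. GDF3 is a TGF-beta family ligand, DNMT3B a de novo DNA methyltransferase, DPPA4 a chromatin factor and L1TD1 an RNA-binding protein derived from a transposon. These genes are usually lowered as cells leave pluripotency, although LIN28B and DNMT3B remain in many early embryonic tissues.

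The overall picture was split. GDF3 fell, and it was the only gene of the 10 whose change passed the test. LIN28A and DNMT3B had lower values in both HAND1_OE libraries than in both Control libraries, without passing. NANOG and L1TD1 did so too, but their levels were too low for the main test. POU5F1 also lay lower in both, but by little in HAND1_OE replicate 2. Among all genes above 0 in any library, 24.7% lay lower in this way. DPPA4, LIN28B and TDGF1 overlapped between the groups. SOX2 was at the limit of detection in all 4 libraries.

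Promoter sequences are shown for 3 genes that stand for these patterns: GDF3, which fell, its chromosome 12 neighbour NANOG, which was barely present, and DPPA4, whose groups overlapped. They are the 250 bases before the RefSeq start (GRCh38.p14), 5′ to 3′ on the strand of the gene. Capitals mark ATGCAAA, part of the octamer that POU factors bind, and CATTGT, a core that SOX factors bind, on either strand. The windows are chr12:7695776-7696025 (minus strand) for GDF3, chr12:7789152-7789401 (plus strand) for NANOG and chr3:109337547-109337796 (minus strand) for DPPA4.
GDF3: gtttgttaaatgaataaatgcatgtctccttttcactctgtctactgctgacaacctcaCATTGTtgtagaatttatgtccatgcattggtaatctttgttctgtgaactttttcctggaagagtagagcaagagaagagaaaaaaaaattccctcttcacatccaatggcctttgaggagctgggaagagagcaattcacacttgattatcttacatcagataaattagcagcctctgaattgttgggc
NANOG: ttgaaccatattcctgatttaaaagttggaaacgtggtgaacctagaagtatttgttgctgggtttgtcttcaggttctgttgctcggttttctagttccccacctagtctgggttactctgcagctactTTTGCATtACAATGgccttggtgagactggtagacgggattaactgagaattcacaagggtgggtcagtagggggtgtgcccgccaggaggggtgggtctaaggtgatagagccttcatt
DPPA4: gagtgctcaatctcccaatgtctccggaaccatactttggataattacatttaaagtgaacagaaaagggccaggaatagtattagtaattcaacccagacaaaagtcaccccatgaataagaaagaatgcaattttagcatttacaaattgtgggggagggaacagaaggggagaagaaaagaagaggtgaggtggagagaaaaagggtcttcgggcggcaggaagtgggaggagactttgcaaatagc

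The NANOG window held both motifs side by side, ATGCAAA at position -120 and CATTGT at -112 relative to the start. The GDF3 window held CATTGT alone, at position -191, and the DPPA4 window held neither. Promoters of POU5F1, LIN28A and TDGF1 were not in the table used, and the other 7 genes matched 8 windows, since LIN28B has a pair. Among all 35116 promoter windows of this length, 3.94% held ATGCAAA and 9.29% held CATTGT, 2 motifs that do not overlap in letters here. The E-box CANNTG, the general motif of bHLH factors such as HAND1, was present in 61.8% of all windows, once in the GDF3 window and in neither of the other windows shown. These matches describe letters and not bound sites.

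Levels are given as FPKM, fragments scaled to transcript length and library size, with each library printed. The value that a single fragment adds to low genes of 1 exon gave an estimated 21600000 to 26200000 fragments per library. Intervals from counting cover counting error only. HAND1 was at 12.1 and 14.3 FPKM in Control, against 520 and 517 FPKM in HAND1_OE. Of 14622 genes tested with limma on log2(FPKM + 1), 309 were lower and 299 higher in HAND1_OE at an adjusted p under 0.05, and the median log2 fold change over all of them was -0.078. CD31+ identity was checked first. PECAM1, which encodes CD31, was at 95.5 and 141 FPKM in Control, against 92.0 and 160 FPKM in HAND1_OE, and CDH5, the endothelial cadherin, was at 222 to 280 FPKM in all libraries.

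The core circuit was examined first because it defines pluripotency. SOX2 (ENSG00000181449.3, GRCh38 chromosome 3, 181711924 to 181714436) was at 0.0202 and 0.0622 FPKM in Control and was listed at 0 in both HAND1_OE libraries. It has a single exon and a single transcript of 2513 nt, and these values equal 1.01 and 2.99 fragments. A count of 0 allows up to 3 fragments, or 0.0513 and 0.0587 FPKM in HAND1_OE replicates 1 and 2, so no difference was detectable at this depth and no fold is given. SOX2 lies inside the longer transcript SOX2-OT, which was at 0.0682 to 0.174 FPKM.

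NANOG (ENSG00000111704.10, chromosome 12, 7787794 to 7799141) was at 0.379 and 0.319 FPKM in Control, against 0.0312 and 0.157 FPKM in HAND1_OE. Both HAND1_OE libraries were below both Control libraries, but the gene did not reach the filter for testing of 1 FPKM in 2 libraries. With every gene above 0 tested, its log2 fold change was -0.30 with a limma adjusted p = 0.317. That setting cannot decide the matter, since it called 0 genes in either direction and gave HAND1 itself an adjusted p = 0.153. NANOG and SOX2, the defining markers of the circuit beside POU5F1, were therefore under 0.4 FPKM in each library.

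POU5F1 (ENSG00000204531.17, chromosome 6, 31164337 to 31180731) was the member of the circuit with the highest level. It was at 4.34 and 4.11 FPKM in Control, against 1.25 and 3.59 FPKM in HAND1_OE. The Control libraries were close together, whereas the HAND1_OE libraries stood 2.88-fold apart and replicate 2 lay just under Control. The mean was 4.22 ± 0.167 FPKM in Control and 2.42 ± 1.66 FPKM in HAND1_OE (SD, n = 2). On the log2 scale the difference was -0.70 (standard error 0.354, limma adjusted p = 0.401). Its 95% interval ran from -1.58 to 0.18, which includes 0. A single library decided this value: without HAND1_OE replicate 2 the log2 fold change was -1.22 (adjusted p = 0.0354), and without HAND1_OE replicate 1 it was -0.19 (adjusted p = 0.848). With a library left out, here and below, the lone library of its group is assumed to vary like the other group, whose 2 libraries alone give the spread between samples. For POU5F1 that drops the wide spread of HAND1_OE.

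**Figure D1:**
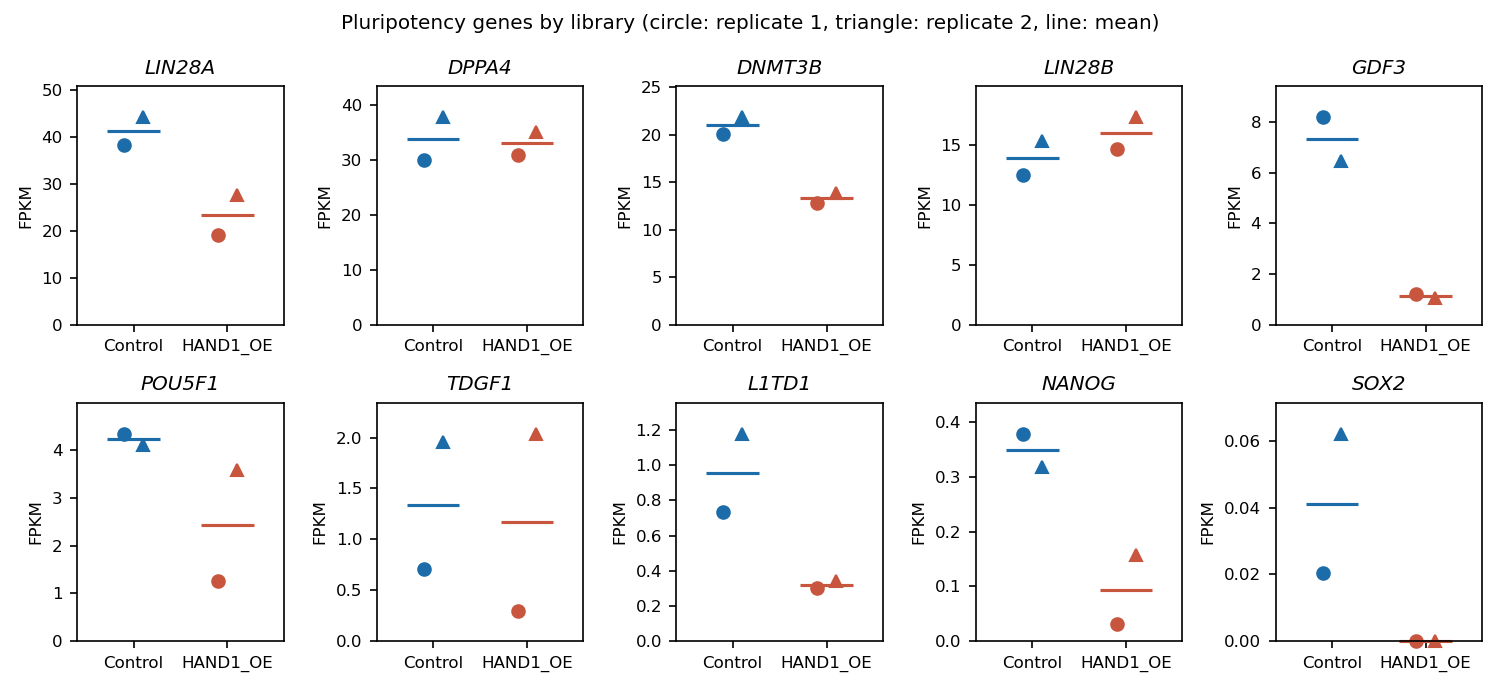
FPKM of the 10 genes in each library, in panels ordered by Control mean, with a linear axis from 0 in each panel; circles are replicate 1, triangles replicate 2 and lines the mean of 2 libraries. GDF3 drops from 8.20 and 6.45 to 1.19 and 1.06 FPKM, DPPA4 and LIN28B overlap, and TDGF1 is highest in the library numbered 2 of each group.

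The ligand GDF3 and the co-receptor TDGF1 act in the same signalling branch, as GDF3 signals through activin-type receptors with TDGF1 as co-receptor. GDF3 (ENSG00000184344.3, chromosome 12, 7689782 to 7695776, minus strand) was at 8.20 and 6.45 FPKM in Control, against 1.19 and 1.06 FPKM in HAND1_OE. The groups were far apart and the libraries of each were close. The mean fell from 7.33 ± 1.24 to 1.13 ± 0.0959 FPKM (SD, n = 2), which is 6.50-fold lower. Its log2 fold change was -1.96 (standard error 0.199, 95% interval -2.46 to -1.47, limma adjusted p = 0.0104). GDF3 has 1 transcript of 1239 nt and shares no 75-base window with another gene, and its values equal 173 and 133 fragments in Control and 30.0 and 23.0 in HAND1_OE. It was the single member called among 7 tested, and 0 were called higher, where 4.16% of all genes tested were called, 2.11% lower and 2.04% higher. Among the members 3 were lower and 0 higher at an unadjusted p under 0.05, where 10.6% of all genes tested were lower. Leaving out each library in turn kept the call, with log2 fold changes from -2.11 to -1.81.

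TDGF1 (ENSG00000241186.9, chromosome 3, 46574534 to 46582463) was at 0.713 and 1.96 FPKM in Control, against 0.296 and 2.04 FPKM in HAND1_OE. The spread within each group exceeded the distance between them, 2.74-fold within Control and 6.90-fold within HAND1_OE. The log2 fold change was -0.18 with a 95% interval from -1.38 to 1.01 (limma adjusted p = 0.907). In both groups the library numbered 2 was the higher. Of its longest coding transcript, 25.4% of 75-base windows also occur in TDGF1P3 or LRRC2, so its reads may be divided with those genes, which were at no more than 0.162 and 0.573 FPKM.

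Many markers of endoderm and of epithelium were, as TDGF1 was, higher in the library numbered 2 of each group. AFP, a yolk sac and fetal liver protein, was at 53.7 and 100 FPKM in Control, against 61.5 and 230 FPKM in HAND1_OE. The epithelial adhesion protein EPCAM was at 9.33 and 16.8 FPKM in Control, against 5.35 and 16.0 FPKM in HAND1_OE. Of the 14 genes of the endoderm list, 11 were higher in the library numbered 2 of both groups, and so were 11 of the 14 epithelial genes, where 33.3% of all genes tested did so. The same order held for 6 of the 10 pluripotency genes, namely TDGF1, LIN28A, LIN28B, DPPA4, DNMT3B and L1TD1. The endoderm list summed to 530 and 833 FPKM in Control and to 419 and 1241 FPKM in HAND1_OE, with no member at 0 in all libraries, and the epithelial list to 239 and 257 and to 220 and 290 FPKM. POU5F1 shared the order of HAND1_OE, but not that of Control, where its libraries differed 1.06-fold. The part of such cells in the values of TDGF1 and POU5F1 was not tested.

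**Figure D2:**
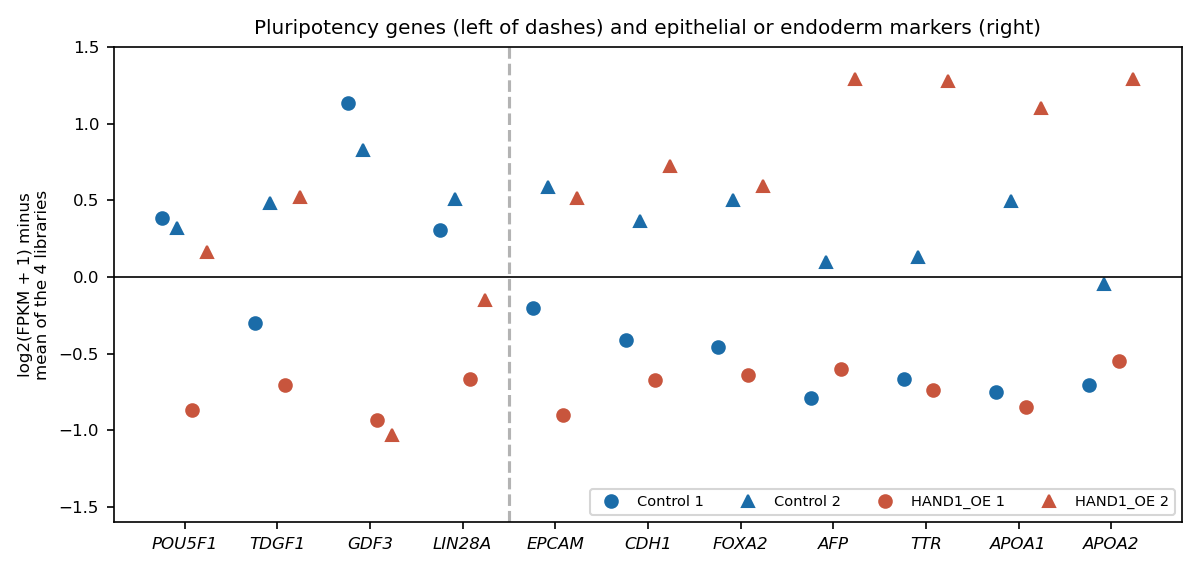
log2(FPKM + 1) of single genes in each library minus the mean of the 4 libraries, for 4 pluripotency genes and 7 epithelial or endoderm markers; blue is Control, red HAND1_OE, circles replicate 1 and triangles replicate 2. Triangles lie above circles of the same colour for TDGF1 as for EPCAM, AFP and TTR, whereas GDF3 separates by colour.

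The let-7 antagonists LIN28A and LIN28B gave different pictures. LIN28A (ENSG00000131914.10, chromosome 1, 26410778 to 26429722) was the highest of the 10 genes in Control, at 38.3 and 44.3 FPKM, and lay at 19.0 and 27.6 FPKM in HAND1_OE. The groups did not overlap. Means were 41.3 ± 4.18 and 23.3 ± 6.08 FPKM (SD, n = 2), with a log2 fold change of -0.82 (standard error 0.214, 95% interval -1.35 to -0.28) that did not pass over all genes tested (limma adjusted p = 0.121). With a library left out, the value ran from -0.56 without HAND1_OE replicate 1 (adjusted p = 0.273) to -1.07 without HAND1_OE replicate 2 (0.0256), and the last was the only such fit that passed.

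LIN28B (ENSG00000187772.7, chromosome 6, 104936616 to 105083332) was at 12.5 and 15.4 FPKM in Control, against 14.6 and 17.3 FPKM in HAND1_OE. The libraries of the groups interleaved, and the log2 fold change was 0.19 with a 95% interval from -0.26 to 0.64 (limma adjusted p = 0.697). A fall of the size seen for LIN28A lay outside that interval, although the difference between the changes of LIN28A and LIN28B was not itself tested. Under 1% of the 75-base windows of either gene occur elsewhere. LIN28B-AS1, which overlaps LIN28B on the opposite strand, was at no more than 0.451 FPKM.

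Of 21 genes known as let-7 targets or as partners of LIN28 in let-7 processing, 20 were tested and 0 were called in either direction with limma. Their median log2 fold change was -0.050. With an unadjusted p under 0.05, 3 were lower and 1 higher, where 10.6% of all genes tested were lower. The chromatin protein HMGA1 did not overlap between groups (adjusted p = 0.0806), at 321 and 283 FPKM in Control, against 193 and 167 FPKM in HAND1_OE. HMGA2, a classical let-7 target, was at 43.4 and 43.1 FPKM in Control, against 41.2 and 50.9 FPKM in HAND1_OE. IGF2BP1, another, was at 30.6 to 32.5 FPKM in all libraries. MYC, of the same list, was at 27.1 and 36.2 FPKM in Control, against 22.4 and 19.2 FPKM in HAND1_OE (adjusted p = 0.213). E2F5 was at 18.3 and 18.9 and at 11.7 and 14.7 FPKM (0.240). Of the 20, 8 lay lower in both HAND1_OE libraries than in both Control libraries and 1 higher, where 30.1% and 16.2% of all genes tested did. Mature let-7 itself was not measured by these libraries.

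DNMT3B and DPPA4 act on chromatin. DNMT3B (ENSG00000088305.18, chromosome 20, 32762385 to 32809356) was at 20.1 and 21.9 FPKM in Control, against 12.8 and 13.9 FPKM in HAND1_OE. The libraries of each group lay close together and the groups did not overlap. The mean was 21.0 ± 1.22 FPKM in Control and 13.4 ± 0.762 FPKM in HAND1_OE (SD, n = 2), with a log2 fold change of -0.62 (standard error 0.149, 95% interval -0.99 to -0.24) and a limma adjusted p = 0.0987. With each library left out the value lay between -0.67 and -0.56, and did not pass.

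The other DNA methyltransferases were read beside it. DNMT1, which copies methylation at replication, was at 46.7 and 42.9 FPKM in Control, against 33.4 and 31.6 FPKM in HAND1_OE, and DNMT3A, the other de novo enzyme, at 41.6 and 38.4 and at 25.6 and 31.9 FPKM. In the list of 18 genes of DNA methylation 16 were tested and 0 were called with limma. Unadjusted, 4 were lower and 0 higher at p under 0.05, where 10.6% of all genes tested were lower. Of these 16, 12 had a log2 fold change below 0, where 61.3% of all genes tested did, and 4 (HELLS, TET1, TET2 and TET3) were above 0. The median was -0.12.

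DPPA4 (ENSG00000121570.12, chromosome 3, 109326141 to 109337572) was at 30.0 and 37.8 FPKM in Control, against 30.9 and 35.2 FPKM in HAND1_OE. Both HAND1_OE libraries lay between the Control libraries. Its log2 fold change was -0.031 with a 95% interval from -0.47 to 0.41 (limma adjusted p = 0.961), and the sign turned under quantile normalization (0.0040) and under median-ratio scaling (0.049). DPPA2, which lies beside it and encodes its binding partner, was at 1.03 and 1.38 FPKM in Control, against 1.04 and 1.84 FPKM in HAND1_OE, far below DPPA4 on this scale that corrects for length. The pair were therefore present at unequal levels.

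L1TD1 (ENSG00000240563.1, chromosome 1, 62194831 to 62212328) was at 0.733 and 1.18 FPKM in Control, against 0.300 and 0.343 FPKM in HAND1_OE. The groups did not overlap, and the mean was 2.98-fold lower in HAND1_OE. It reached 1 FPKM in a single library and was not tested in the main comparison. With every gene above 0 tested its log2 fold change was -0.56 (limma adjusted p = 0.347), in a setting that called 0 genes in either direction and so cannot decide. Its 1 transcript gave an estimated 58.5 and 90.8 fragments in Control and 28.04 and 28.09 in HAND1_OE.

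**Figure D3:**
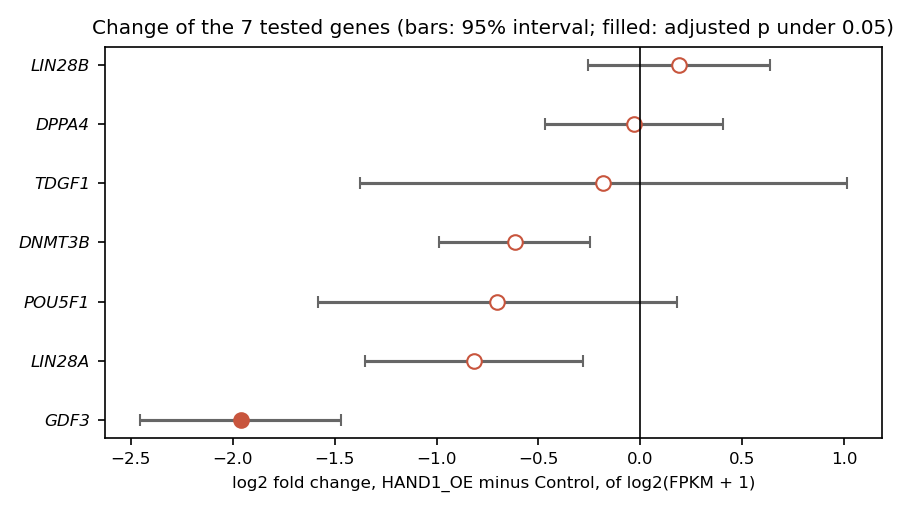
log2 fold change (HAND1_OE minus Control, on the log2(FPKM + 1) scale) of the 7 genes that passed the filter on low values, with 95% limma intervals; filled points have an adjusted p under 0.05. GDF3 at -1.96 is the filled point, LIN28A and DNMT3B have intervals below 0, and TDGF1 has the widest interval.

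Set in order, the 10 genes covered a wide range of levels. In Control the order was LIN28A, DPPA4, DNMT3B, LIN28B, GDF3, POU5F1, TDGF1, L1TD1, NANOG and SOX2, and the only neighbours whose libraries overlapped were TDGF1 and L1TD1. LIN28A and DPPA4 lay above 84.8% and 81.3% of the genes tested, while POU5F1 lay above 29.5% and TDGF1 above 7.14%. In HAND1_OE DPPA4 came first at 33.0 FPKM, followed by LIN28A at 23.3, LIN28B at 16.0 and DNMT3B at 13.4 FPKM. POU5F1, TDGF1 and GDF3 came next, and of these POU5F1 overlapped TDGF1 and TDGF1 overlapped GDF3. GDF3 moved from the fifth to the seventh place. Summed over the 10 genes the level was 115 and 133 FPKM in Control and 80.5 and 101 FPKM in HAND1_OE, most of it from LIN28A and DPPA4.

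Library by library, the direction depended on which libraries were compared. All 10 genes were lower in HAND1_OE replicate 1 than in Control replicate 2, with a median difference of -0.74 on the log2(FPKM + 1) scale. HAND1_OE replicate 1 against Control replicate 1 gave 8 lower and a median of -0.42. HAND1_OE replicate 2 gave 7 lower against Control replicate 1 (median -0.24) and 8 lower against Control replicate 2 (median -0.17). The exceptions were LIN28B, DPPA4 and TDGF1 in varying combinations. Between the groups, 61.3% of all genes tested had a log2 fold change below 0, a share that is for the groups and not for single pairs.

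In all 4 pairs 7 of the 10 genes were lower, namely GDF3, LIN28A, DNMT3B, POU5F1, NANOG, L1TD1 and SOX2, the last within the detection limit. Among all 29860 genes above 0 in any library, 24.7% lay lower in both HAND1_OE libraries than in both Control libraries. Of the 7 members tested 4 did so, where 30.1% of all genes tested did, and 0 lay higher in both, where 16.2% did. The median log2 fold change over the 7 was -0.62 against -0.078 over all genes tested, and -0.19 without HAND1_OE replicate 1. An exact permutation test of a single value, two-sided, cannot go below p = 0.3333 with so few libraries.

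**Figure D4:**
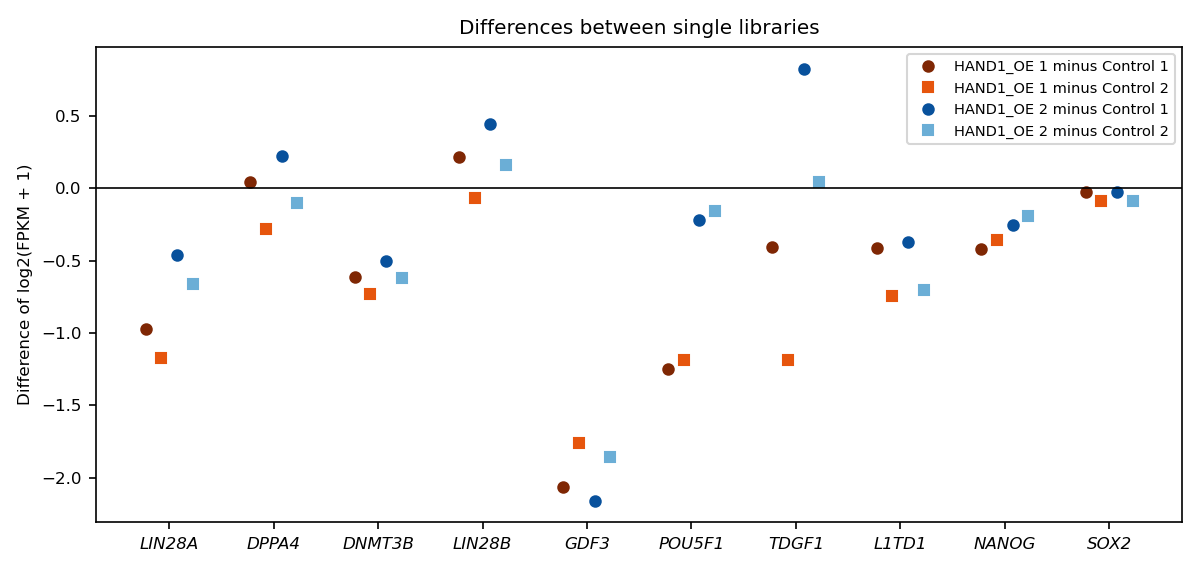
Differences of log2(FPKM + 1) between single libraries for the 10 genes, ordered by Control mean; each point is a HAND1_OE library minus a Control library. The 4 points of GDF3 lie together far below 0, those of POU5F1 and LIN28A split by HAND1_OE library, and those of TDGF1 lie on both sides of 0.

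Some of the 10 genes have copies in the genome, processed or unprocessed, whose reads can be confused with theirs. Copies of POU5F1, NANOG, LIN28A and TDGF1 made up 26 rows of the table, of which 12 were at 0 in all libraries and none exceeded 0.668 FPKM. Of the longest coding transcript of POU5F1 26.6% of 75-base windows occur in other genes, which are its copies and TCF19, a gene that overlaps it on the opposite strand (0.453 to 0.695 FPKM). For NANOG the share was 12.0%. Values of POU5F1, NANOG and TDGF1 are to that extent uncertain. The longest coding transcripts of GDF3, DPPA4 and DNMT3B had no shared window. Of L1TD1 2.28% of windows were shared, with DPPA4 among the 27 other genes that held some of them.

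Other genes of pluripotency were examined to see whether the 10 were typical. Of 38 listed, 21 were tested, and 3 (DPPA5, FGF4 and HHLA1) were at 0 in all libraries. With limma 2 were called lower and 1 higher, where 2.11% of all genes tested were called lower and 2.04% higher. At an unadjusted p under 0.05, 7 were lower and 4 higher, where 10.6% of all genes tested were lower. The median over the 21 was -0.26. MYCN (chromosome 2, 15940564 to 15947007), a growth-promoting transcription factor, fell from 18.6 and 16.6 to 2.87 and 3.54 FPKM, a log2 fold change of -2.15 (standard error 0.175, limma adjusted p = 0.0073). The neuropeptide GAL fell from 3.75 and 3.08 to 0.992 and 1.16 FPKM (-1.08, adjusted p = 0.0495). CD9, a tetraspanin that many cell types share, rose from 213 and 197 to 472 and 405 FPKM (1.09, adjusted p = 0.0305). SALL4, a partner of POU5F1, was at 13.3 and 14.9 FPKM in Control, against 8.31 and 11.4 FPKM in HAND1_OE (-0.49, adjusted p = 0.286). ZFP42 went the other way, from 1.49 and 2.11 to 3.11 and 3.07 FPKM (0.55, adjusted p = 0.253). Of the 21, 10 lay lower in both HAND1_OE libraries than in both Control libraries and 4 higher, where 30.1% and 16.2% of all genes tested did. GAL lost its call in 8 of 11 alternatives, including those that left out each library in turn, and was not tested in 1. CD9 lost it in 3, among them those that left out Control replicate 2 (adjusted p = 0.0506) or HAND1_OE replicate 1 (0.0705), and MYCN in 1, the test of every gene above 0.

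The ligand NODAL, after which the branch of GDF3 and TDGF1 is named, was itself below 1 FPKM throughout. It was at 0.327 and 0.135 FPKM in Control, against 0.0616 and 0.115 FPKM in HAND1_OE, and its feedback inhibitor LEFTY1 at 0.560 and 0.787 and at 0.114 and 0.0980 FPKM. The receptor ACVR1B was at 6.70 to 9.22 FPKM in all libraries, with overlapping groups. Of 18 listed genes 13 were tested. FOXH1 (chromosome 8, 144473412 to 144476335), the nuclear partner of SMAD2 and SMAD3 at NODAL targets, fell from 4.19 and 5.13 to 0.688 and 1.02 FPKM (log2 fold change -1.61, standard error 0.212, limma adjusted p = 0.0219). SMAD3 rose from 5.40 and 6.68 to 13.0 and 13.7 FPKM (1.03, adjusted p = 0.0379), a call lost when Control replicate 1 (0.0966) or HAND1_OE replicate 2 (0.0609) was left out. CFC1, of the same list, lay at 0.396 and 0.582 FPKM in Control, against 3.06 and 2.11 FPKM in HAND1_OE (1.26), just short of a call (adjusted p = 0.0508). The median of the list was -0.095.

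GDF3 and NANOG lie in the same stretch of chromosome 12 as DPPA3 and the glucose transporter genes SLC2A14 and SLC2A3. SLC2A3 (chromosome 12, 7919230 to 7936275) fell from 189 and 243 to 82.2 and 109 FPKM (log2 fold change -1.17, standard error 0.213, limma adjusted p = 0.0475). SLC2A14, its close paralog, was at 2.04 and 2.41 FPKM in Control, against 0.781 and 0.694 FPKM in HAND1_OE (-0.89, adjusted p = 0.0861), and division of reads between the paralogs is uncertain. DPPA3 was at 0.0478 to 0.499 FPKM with overlapping groups, and APOBEC1, CLEC4C and NANOGP1 were listed at 0 throughout. FOXJ2 (-0.16) and NECAP1 (-0.25), further along, were not called, and C3AR1 and MFAP5 were under 1 FPKM in each library. The call of SLC2A3 was lost under 7 of 11 alternatives, among them those that left out Control replicate 2 (0.0841) or HAND1_OE replicate 1 (0.0705).

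Of the 14 other lists, blood markers had the median farthest from 0, and they were lower in HAND1_OE, as GDF3 was. Of 15 listed 13 were tested and 12 were called lower, with a median of -3.22. The 15 summed to 507 and 739 FPKM in Control and to 56.0 and 61.7 FPKM in HAND1_OE, with none at 0 in all libraries. Within each group the order was opposite, with GDF3 higher in replicate 1 and the blood sum higher in replicate 2. HBE1, embryonic epsilon globin, went from 175 and 295 to 11.8 and 11.1 FPKM (limma adjusted p = 0.00607), and HBZ, embryonic zeta globin, from 35.7 and 57.9 to 2.25 and 1.99 FPKM. Endothelial genes as a list had a median of -0.012 over 18 genes, with VWF called higher and CLDN5 and SOX18 lower, and summed to 2370 to 2776 FPKM in Control and 2339 to 2554 FPKM in HAND1_OE. In such bulk samples fewer cells of a type and less RNA per cell cannot be told apart, and the part of blood cells in the values of GDF3, LIN28A and DNMT3B was not tested.

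Primitive streak and mesoderm markers, which follow pluripotency in development, had 8 of 18 genes tested, a median of -0.12 and 1 gene called. This was MIXL1, a homeobox factor of the streak, which fell from 5.63 and 3.89 to 0.813 and 1.27 FPKM (log2 fold change -1.49, standard error 0.244, limma adjusted p = 0.0369), a call lost without Control replicate 1 (0.0693). TBXT (brachyury) was at 0 to 0.142 FPKM and GSC was listed at 0 in all libraries. Of the 8 tested, 5 had a log2 fold change below 0 and 3 above 0. The 3 were PDGFRA (1.20, limma adjusted p = 0.0547), APLNR (0.43) and SOX17 (0.27), none of them called. PDGFRA was at 3.54 and 4.22 FPKM in Control, against 8.33 and 12.4 FPKM in HAND1_OE. APLNR was at 38.2 to 78.7 FPKM and SOX17 at 35.2 to 53.2 FPKM. Of the endoderm list, 11 of 14 were tested and HHEX, which is also used by endothelial cells, was called lower (-1.23, adjusted p = 0.0168). Of the epithelial list, 10 of 14 were tested and 0 were called. Unadjusted, 1 was lower and 0 higher at p under 0.05, where 10.6% of all genes tested were lower.

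**Figure D5:**
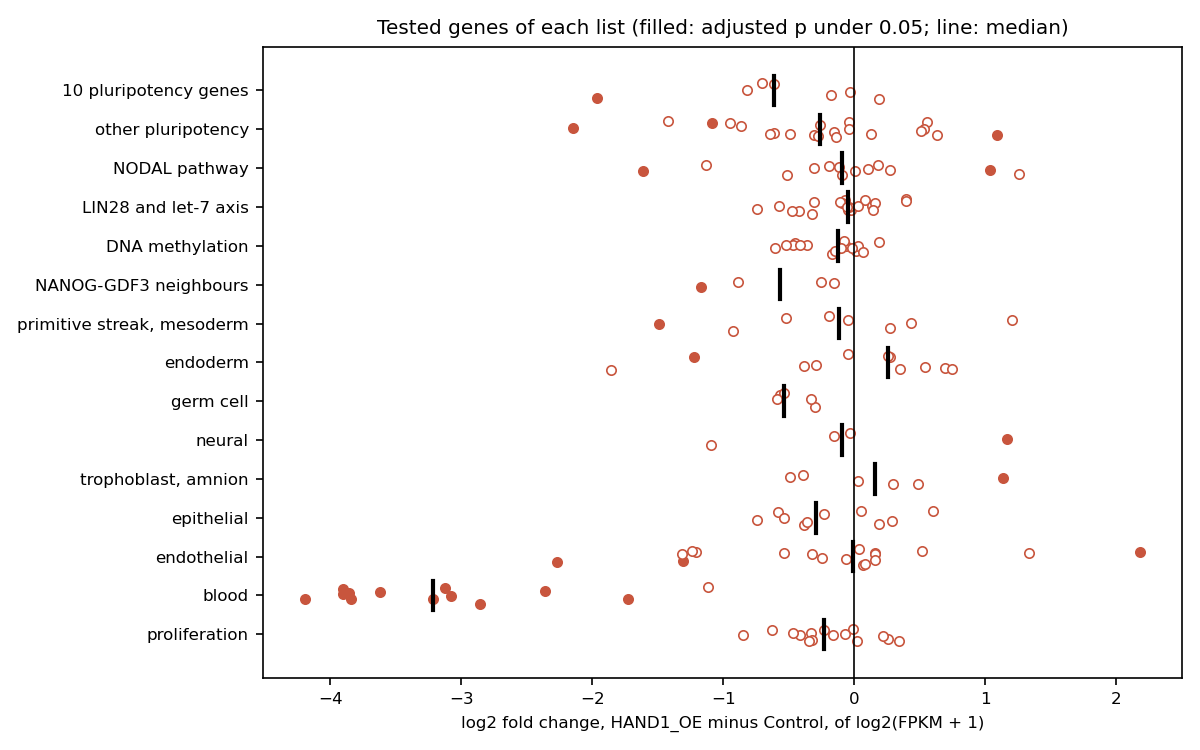
log2 fold change of each tested gene in the 10 pluripotency genes and in 14 other lists; filled points have a limma adjusted p under 0.05 and black lines are medians. The blood list sits far to the left with a median of -3.22, whereas the pluripotency genes have a median of -0.62 with GDF3 filled.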

How the data were processed

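RNA of CD31+ cells was sequenced by the authors from libraries made with an Illumina TruSeq kit. The deposited table holds a value per gene and library, taken as FPKM because the study plots that unit and library sums differ (536299 to 606623). Submitters' processing notes name BWA, Bowtie, RSEM and hg19, with no role or order, but 97.6% of matched genes have GRCh38 positions of GENCODE release 29. Strand use in counting is not given in the sources used here. Of 58365 rows, 45 Y copies and 91 repeated IDs were left out.

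Genes with at least 1 FPKM in 2 libraries were tested as log2(FPKM + 1) with limma 3.58.1 (R 4.3.3) and a mean-variance trend, two-sided, with Benjamini-Hochberg adjustment over all genes. All adjusted p-values are from this test. Fold changes on this scale understate those of low genes. The code was tested on simulated data. P-values measure only the spread between these libraries, which may be technical. Fragment counts are estimates from low values of genes with 1 exon and 1 transcript, with the longest coding transcript.

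Members and all 14 lists were chosen with earlier results of these data known. Named genes are the members, up to 3 called genes of each list (2 for blood), neighbours of NANOG and GDF3 (1 is not reported here), PECAM1 and CDH5, and others chosen after their values were seen. Alternatives were other pseudocounts, filters, scalings, no trend, a replicate block and each library left out.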

Additional observations from a re-analysis of the deposited data

How the results depend on the processing

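GDF3 remained lower past the threshold in each alternative except the test of every gene above 0 (29860 genes), where its log2 fold change of -1.96 had a limma adjusted p = 0.153. In that setting HAND1 kept 5.20 with an adjusted p = 0.153, 0 genes were called higher, 0 lower and 0 members lower, whereas an unadjusted p under 0.05 was reached by 1458 genes upward and by 2352 downward. Unadjusted limma p-values moved both ways there. That of GDF3 rose from 9.33e-05 to 0.00127 and that of DNMT3B fell from 0.00714 to 0.00545, and the cause was not tested. The replicate number shared between groups was tried as a block. Deviations of the libraries numbered 2 from their group means correlated at 0.383 across genes, but the labels do not say that a number marks a shared culture. With the replicate block 597 genes were called higher, 712 lower and 3 members lower: GDF3, LIN28A (adjusted p = 0.0325) and DNMT3B (0.0367). With each library left out, HAND1 ranged from 5.08 to 5.31, 270 to 313 genes were higher, 212 to 431 lower, 1 to 3 members lower (3 without HAND1_OE replicate 2) and 0 higher. The median of the members ranged from -0.87 to -0.19, lowest in size without HAND1_OE replicate 1. DPPA4 changed sign, at 0.0040 after quantile normalization, 0.049 after median-ratio scaling and from -0.19 to 0.13 with a library left out, as did TDGF1, from -0.57 to 0.43. LIN28B kept its sign in all alternatives. Medians of the NODAL, streak, endoderm, neural, trophoblast and epithelial lists changed sign when some library was left out. FPKM from so few fragments limit NANOG and SOX2.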

Other observations

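Several of the 10 genes are also known from germ cells and neural progenitors, so markers of those cells were read beside them. Of 12 germ cell genes 5 were tested and 0 were called with limma, with a median log2 fold change of -0.54. Among these 5, 1 was lower and 0 higher at an unadjusted p under 0.05, where 10.6% of all genes tested were lower. DAZL and DDX4, defining germ cell genes, were at no more than 0.0167 and 0.0651 FPKM. Other genes of the list were present, with NANOS3 at 1.76 to 6.14 FPKM, PRDM1 at 3.27 to 8.52 FPKM, KIT at 4.14 to 7.13 FPKM and DND1 at 0.449 to 1.39 FPKM. Of 18 neural genes 4 were tested, with NES called higher (1.16, adjusted p = 0.0248), and SOX1, SIX3 and SIX6 were at or near 0. SOX11 was at 3.77 and 4.65 FPKM in Control, against 1.20 and 1.70 FPKM in HAND1_OE (-1.09, adjusted p = 0.0573). Nestin is also expressed by endothelial and mesenchymal cells. Of 12 trophoblast and amnion genes 6 were tested and TFAP2A was called higher (1.13, adjusted p = 0.0419), a call lost without Control replicate 1 (0.0506), Control replicate 2 (0.0703) or HAND1_OE replicate 1 (0.0773). Of 15 proliferation genes all were tested and 0 were called, with a median of -0.24. Among these 15, 4 were lower and 0 higher at an unadjusted p under 0.05, where 10.6% of all genes tested were lower.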
